A study of Mus musculus with 5 samples.

Results

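The genes described here are the mouse genes whose symbol begins with Psma, Psmb, Psmc, Psmd, Psme or Ube2, that is, the subunits and activators of the proteasome and the ubiquitin-conjugating enzymes. By the annotation of the array's probe sets, 70 of the 12393 genes with a probe set of their own met this rule: 41 proteasome genes, 27 Ube2 genes, and 2 genes (Psmc3ip and Psme3ip1) that are named after a proteasome protein they bind and encode no subunit. They were measured on 5 Affymetrix arrays of RNA from the ventromedial hypothalamus (VMH) of C57Bl/6 mice, a nucleus with roles in feeding and in defence. Under isoflurane, mice were given an electroconvulsive seizure (ECS) by ear clip electrodes on both sides (25 mA, pulses of 0.5 msec at 100 per second for 1 sec), either 1 time or 7 times, and their brains were taken 2 h or 6 h later. There was 1 array for each group. The groups were sham, handled alike with no current and taken at 2 h, 1 shock with brains taken at 2 h and at 6 h, and 7 shocks likewise; lists of 5 readings below follow that array order. Sex and age were not used here. Each array held pooled RNA of 2 or 3 animals, cut out of 7 µm sections by laser and amplified from 2 ng. With 1 array per group there is no spread between replicates, no error and no test for any value below, and the 6 h groups have no sham of their own time. Bulk RNA does not tell less RNA per cell from fewer cells of a type.

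The proteasome is the barrel-shaped protease that degrades proteins tagged with ubiquitin. Its core particle has outer rings of alpha subunits (Psma), which form the gate, and inner rings of beta subunits (Psmb), some of which carry the protease sites. A regulatory particle of ATPases (Psmc) and other subunits (Psmd) caps the core, recognises the tag, removes it and unfolds the substrate, and the activators (Psme) are alternative caps. Ubiquitin passes from an activating enzyme (E1) to a conjugating enzyme (E2, the Ube2 genes) and from there, with a ligase (E3), to the substrate. Which E2 acts sets in part what kind of ubiquitin chain is built. In neurons the system is known for turning over synaptic proteins in an activity-dependent way.

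Promoter sequences from RefSeq (build GRCm38.p6) were found for 57 of the 70 genes, and the 250 bases before the gene's start were searched on both strands for a pair of motifs. One is TGACNNNGC, the core of the antioxidant response element through which Nfe2l1 is known to drive proteasome genes. It was in 5 of 34 proteasome genes (14.7%), 3 of 21 Ube2 genes (14.3%) and 11.5% of the 27025 genes with a promoter, so the shares lie near each other. The other is TGACGTCA, the cAMP response element, which was added after the array values had been seen. It was in 0 of 34 proteasome genes, in 1 of 21 Ube2 genes (Ube2h) and in 1.77% of all genes. The windows below are shown because these 3 genes, Ube2h, Psmb5 and Ube2j1, are members past 2-fold or just under it, with the motif in capitals. A match is a run of letters and shows no binding.
Ube2h: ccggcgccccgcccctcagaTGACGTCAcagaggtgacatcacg
Psmb5: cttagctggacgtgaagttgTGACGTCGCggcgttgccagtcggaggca
Ube2j1, upstream match: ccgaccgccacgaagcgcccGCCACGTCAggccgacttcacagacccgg
Ube2j1, downstream match: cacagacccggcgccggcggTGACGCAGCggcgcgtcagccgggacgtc
All are written in the direction of the gene. The Ube2h window lies at chr6:30304540-30304583 on the minus strand, and its motif ends 17 bases before the start. The Psmb5 window lies at chr14:54618014-54618062 on the minus strand, with the motif ending 39 bases before the start. The Ube2j1 windows lie at chr4:33031291-33031339 and chr4:33031329-33031377 on the plus strand, and the upstream match reads as the motif on the opposite strand. The other genes with TGACNNNGC were Psmb6, Psmc6, Psmd9, Psmd12, Ube2e2 and Ube2v1.

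The deposited signals were not at a common level, with array medians of 20.2 to 31.5, and their shift against sham ran from -0.13 to 0.51 on the log2 scale. Each array was therefore centred, and every reading below is a centred signal on a linear scale, with a pseudocount of 1.2 included; a difference is a log2 difference of 2 such readings. Genes were kept if their probe set was in the top 50% by mean signal, which left 6665 genes in all. A gene counted as past 2-fold, or called, when its log2 difference reached 1 in size. The labels name the VMH, and a free-text note on the samples names the PVN. Of the VMH markers, the factor Nr5a1 read 67.3 to 158 and the glutamate transporter Slc17a6 439 to 563, while Nkx2-1 and Sox14 were below the filter. Of the PVN and supraoptic markers, the factors Sim1 and Otp were below it and Trh read 109 to 157. Oxt and Avp passed it but were dim and differed between arrays. In array order, Oxt read 16.4, 27.9, 11.5, 52.8 and 52.1, and Avp 9.88, 8.22, 49.5, 46.9 and 30.3. The summed signal was 1917 to 3113 for 6 VMH markers and 168 to 246 for 5 PVN and supraoptic markers, with 0 markers of either list at 0.

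Of the 70 genes, 62 passed the filter: 38 proteasome genes, 23 Ube2 genes and Psme3ip1. The 8 that did not were Psma8, Psmb8, Psmb9, Psmc3ip, Ube2c, Ube2d2b, Ube2l6 and Ube2t. Each had a mean deposited signal under the filter's threshold of 28.4, but not all were low on every array. The highest single signals were 45.2 for Ube2l6, the E2 of the interferon-induced modifier ISG15, and 34.3 for the immunoproteasome subunit Psmb9. Ube2l6 differed widely between arrays, with centred readings of 50.5, 60.5, 11.9, 18.8 and 3.82 in array order. Psma8 is a testis form of an alpha subunit, and Ube2c and Ube2t are best known from dividing cells. The activator Psme2 and the E2 Ube2l3 are represented by 5 probe sets that each match several genes, and they were left out.

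Most members varied little between the 5 arrays. The distance from the lowest to the highest array had a median of 0.67 (log2) over the proteasome genes and 0.67 over the Ube2 genes, against 0.99 over all 6665 genes. At least 2-fold apart were 8 of 38 proteasome genes (21.1%) and 7 of 23 Ube2 genes (30.4%), beside 49.3% of all genes. Members are bright, with 21 of the 38 and 11 of the 23 in the brightest 25% of all genes, where genes as a whole varied least. Within it the median was 0.56 for proteasome genes, 0.49 for Ube2 genes and 0.58 for all, and the share past 2-fold was 1 of 21, 2 of 11 and 13.6%. In the next 25% the share was 4 of 13, 3 of 9 and 41.6%. At like brightness the median spread of the members was thus close to that of other genes.

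**Figure D1:**
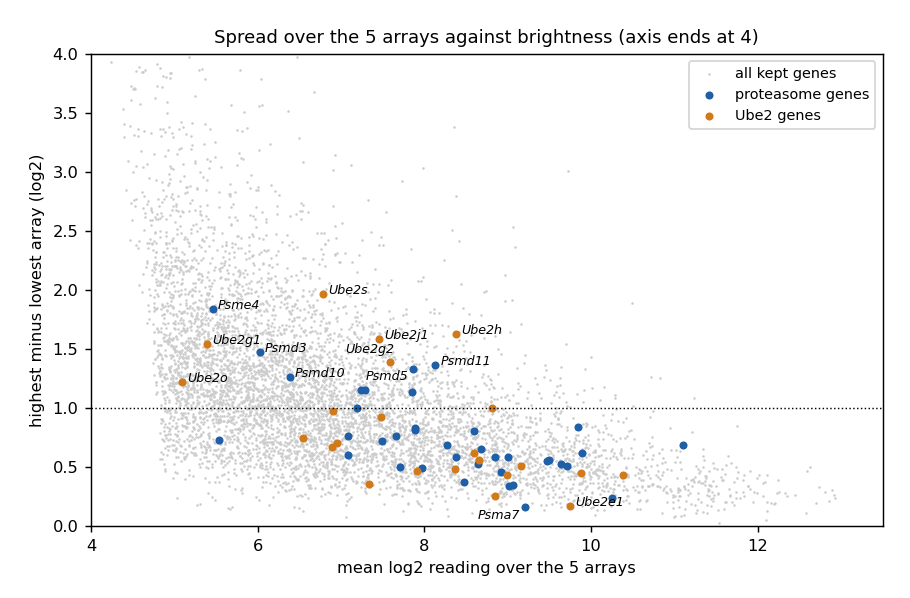
Distance between the highest and the lowest of the 5 arrays (log2) against the mean log2 reading, 1 point per gene, with all 6665 kept genes in grey, proteasome genes in blue and Ube2 genes in orange; the dotted line is 2-fold, and 43 genes beyond the axis end of 4 are not drawn. Psma7 and Ube2e1 lie lowest among the members, and Ube2s, Psme4 and Ube2h lie furthest above the dotted line.

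The steadiest members show the scale of agreement between the arrays. Psma7, an alpha-ring subunit, read 604, 623, 574, 602 and 558 in array order. The beta-ring subunit Psmb4 read 1139, 1340, 1197, 1160 and 1284 and Psmb7, which carries the trypsin-like site, read 449, 569, 500, 547 and 530. Among the E2 genes, Ube2e1 read 876, 911, 852, 809 and 861. Ube2k, which builds the chains that mark proteins for degradation, read 432, 437, 461, 460 and 514. Ube2d1, of the broadly acting Ube2d family, read 142, 173, 169, 148 and 182. The 5 readings of each of these 6 genes span 0.16 to 0.36 on the log2 scale. Second kept probe sets of Psma7, Psmb4 and Ube2k spanned 0.58, 0.73 and 0.91.

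Against sham at the matched time, 2 h after 1 shock, 0 of 38 proteasome genes passed 2-fold, and 1 of 23 Ube2 genes, Ube2s, was higher. Of all genes, 6.29% were higher and 6.83% lower by that rule. The medians were 0.06 for proteasome genes, 0.10 for Ube2 genes and 0.01 for all genes. After 7 shocks at 2 h, 1 proteasome gene was lower (Psma4) and 3 Ube2 genes were higher (Ube2g1, Ube2j1 and Ube2s), beside 7.1% of all genes higher and 6.86% lower. The medians were -0.03, 0.05 and 0.01 in the same order.

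At 6 h after 1 shock, the proteasome genes Psmd3 and Psmd7 were higher than the 2 h sham, Psma4 was lower, and 0 of 23 Ube2 genes passed 2-fold. The shares of all genes were 7.25% higher and 7.73% lower, and the medians were 0.14, 0.15 and 0.07. At 6 h after 7 shocks, 0 of 38 proteasome genes passed and 3 Ube2 genes were higher (Ube2g1, Ube2g2 and Ube2h), beside 7.4% of all genes higher and 7.25% lower. The medians were 0.03 for proteasome genes, 0.25 for Ube2 genes and 0.02 for all genes. These 4 comparisons share the sham array, so a reading that is off on it enters all of them. Without centring, where all genes had a median of 0.46 at 6 h after 1 shock and 0.50 at 6 h after 7 shocks, proteasome genes split into 8 higher and 0 lower in the former and 7 higher and 0 lower in the latter. Of all genes, 17.5% were higher and 3.83% lower in the former and 20.5% and 2.84% in the latter, so these counts lie near the general share. Their medians there were 0.53 and 0.52, which is 0.07 or less above that of all genes.

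Between 7 shocks and 1 shock at 2 h, Psmd11 and Ube2v2 were lower and 0 members were higher, with 7.68% of all genes higher and 7.1% lower. At 6 h, Psme4, Ube2h and Ube2j1 were higher after 7 shocks than after 1, and Psmd10 and Psme3ip1 were lower, beside 8.6% and 8.97% of all genes. From 2 h to 6 h after 1 shock, Psmd5 and Ube2o were higher and Psmd11, Psme4 and Ube2s lower, beside 8.19% and 7.86% of all genes. From 2 h to 6 h after 7 shocks, 0 of 38 proteasome genes and 0 of 23 Ube2 genes passed 2-fold, and the partner gene Psme3ip1 was lower, beside 6.78% and 6.96% of all genes. In these 4 comparisons the medians of the proteasome genes were -0.13, -0.14, 0.11 and 0.18, and those of the Ube2 genes 0.02, 0.10, -0.07 and 0.07. All genes had medians of -0.00, -0.05, 0.06 and 0.02.

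**Figure D2:**
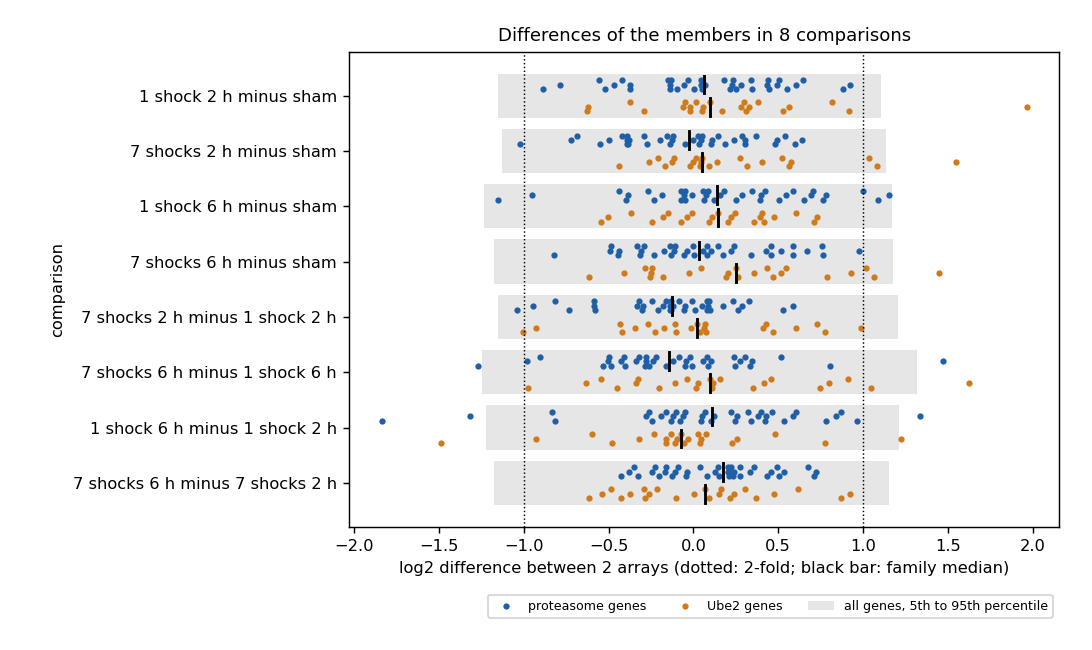
Log2 difference of each kept proteasome gene (blue, 38) and Ube2 gene (orange, 23) in the 8 comparisons, with the family medians as black bars and the 5th to 95th percentile of all genes as grey bands; dotted lines mark 2-fold. Most points lie inside the bands, and the Ube2 genes past 2-fold in the comparisons with sham are all on the higher side.

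The arrays also differed in how often they were the highest for a member. The 1 shock 6 h array was the highest of the 5 for 16 of 38 proteasome genes, beside 25.9% of all genes. The 7 shocks 2 h array was the highest for 1 of 38, Psmb2, beside 18% of all genes. For the Ube2 genes the 7 shocks 6 h array was the highest for 8 of 23 (20.7% of all genes) and sham for 1 of 23, Ube2n (16.5%). The 1 shock 2 h array came next in both families, highest for 10 of 38 proteasome and 7 of 23 Ube2 genes (18.8% of all genes). The array most often highest thus differed between the families, but for the Ube2 genes only by 8 against 7. With 1 array per group this is a statement about these arrays.

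Among the alpha-ring genes, which form the gate of the core, Psma4 was the only one past 2-fold by the brightest probe sets. It read 268, 145, 121, 132 and 152 in array order. Sham stood above all 4 ECS arrays, whose log2 differences from it were -0.89, -1.15, -1.02 and -0.82, and Psma4 has only this probe set. Without centring the difference was -0.76 at 6 h after 1 shock and -0.51 at 2 h after 7 shocks. Psma1 differed the other way, with sham the lowest at 146 and the ECS arrays at 221, 237, 180 and 247. By their brightest probe sets the other 5 alpha genes spanned 0.16 to 0.69 over the arrays. A dimmer kept probe set of Psma6 spanned 1.02.

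Of the 7 constitutive beta-ring genes, 0 passed 2-fold in any comparison by their brightest probe sets. The second kept probe set of Psmb3 stood 1.59 above sham at 6 h after 1 shock. It stood at 1.18 from 2 h to 6 h after 1 shock, and at -1.50 between 7 shocks and 1 shock at 6 h. In the comparisons with sham (1 shock 2 h, 7 shocks 2 h, 1 shock 6 h, 7 shocks 6 h) 6, 7, 6 and 5 of the 7 were above it by their brightest probe sets. The medians were 0.23, 0.29, 0.18 and 0.24 beside 0.01, 0.01, 0.07 and 0.02 for all genes. The furthest was Psmb5, which carries the chymotrypsin-like site, the one most proteasome inhibitors are aimed at. It read 103 on sham, 120 and 127 on the 2 h arrays (1 and 7 shocks), and 206 and 203 on the 6 h arrays. Both 6 h readings stood above the 3 readings at 2 h, just under 2-fold above sham (1.00 and 0.98) and by 0.78 and 0.68 above the 2 h array of the same number of shocks. Psmb1 read 231 on sham and 315 to 374 on the ECS arrays, and Psmb6, with the caspase-like site, read 394 to 542 on the 5 arrays.

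The interferon-inducible beta subunits, which replace their constitutive counterparts in the immunoproteasome, differed in brightness. Psmb8 had deposited signals of 3.5 to 13.1 and Psmb9 of 0.9 to 34.3, both below the filter. Psmb10 passed it and read 214 on sham, 194 and 203 after 1 shock at 2 h and 6 h, and 130 and 175 after 7 shocks at 2 h and 6 h, so the lowest was the 7 shocks 2 h array (-0.72 from sham). On that array 4 of the 8 kept microglial markers were also lowest, namely Csf1r (227 against 653 on sham), Tyrobp (145 against 220), P2ry12 (14.5 against 68.7 on sham) and Aif1 (23.7 against 71.2), whereas C1qb was highest there (731 against 393 on sham). The signal summed over the 10 microglial markers on the array ran from 1947 to 2170 over the 5 arrays, with 0 of them at 0 and the 7 shocks 2 h array the highest. The interferon list of 9 genes summed to 654 to 939, with 0 at 0. Their part in the Psmb10 values was not tested.

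Of the 6 ATPase genes, which unfold the substrate, 0 passed 2-fold in the 8 comparisons. Psmc3 had the widest spread (1.14) and read 253 on sham, 196 and 381 after 1 shock at 2 h and 6 h, and 173 and 204 after 7 shocks, with the 1 shock 6 h array standing apart. Psmc5 read 334 to 358 on 4 arrays and 584 on the 7 shocks 6 h array. Psmc1, Psmc2, Psmc4 and Psmc6 each spanned 0.35 to 0.55 by their brightest probe sets. Second kept probe sets of Psmc2, Psmc4 and Psmc6 spanned 0.87, 0.29 and 0.81.

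The 11 non-ATPase genes had medians of -0.03, -0.29, 0.08 and -0.11 in those 4 comparisons. Psmd7, a lid subunit that pairs with the deubiquitinase Psmd14, read 104 on sham, 127 and 232 after 1 shock at 2 h and 6 h, and 152 and 166 after 7 shocks. Sham was the lowest and the 1 shock 6 h array the highest (1.15 above sham). Psmd3, another lid subunit, read 54.0, 79.3, 115, 41.2 and 58.0, again with the 1 shock 6 h array highest (1.09 above sham). That array also had the highest sums of the VMH markers (3113 against 1917 on sham) and of the 6 endothelial markers (279 against 175 on sham). Single markers differed in this, with 2 of 4 kept VMH and 2 of 3 kept endothelial markers highest there. The endothelial Slco1a4 read 53.5 there against 66.9 on sham. Adcyap1, of the VMH list, read 1344 there and 1373 after 7 shocks at 2 h, against 611 on sham. The part of these markers in the Psmd7 and Psmd3 values was not tested. Psmd14, which removes ubiquitin from the substrate, read 830, 812, 1055, 859 and 1245, so that both 6 h arrays were the highest. Psmd11, a lid subunit, read 534 after 1 shock at 2 h and 207 to 282 on the other 4 arrays, but it rests on 1 of 6 probe sets that did not move together, described further down. Psmd12 read 341 on that same array and 193 to 252 on the others. The remaining genes (Psmd1, Psmd2, Psmd4, Psmd6, Psmd8 and Psmd13) spanned 0.38 to 0.76 by their brightest probe sets. Second kept probe sets of Psmd4, Psmd6 and Psmd13 spanned 1.32, 1.09 and 1.08.

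The assembly chaperones, which put the ATPase ring together, did not share a pattern. Psmd5 read 251, 145, 367, 177 and 293, with both 2 h ECS arrays lowest and a difference of 1.33 from 2 h to 6 h after 1 shock. Psmd10, also known as gankyrin, read 77.0, 105, 132, 69.9 and 54.9, with both 1-shock arrays above both 7-shock arrays and a difference of -1.27 between 7 shocks and 1 shock at 6 h. Psmd9 read 35.8 to 59.4.

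Of the activators, Psme4, the large cap protein known from histone turnover, read 37.8, 69.8, 19.5, 59.0 and 54.1 in array order. The 1 shock 6 h array was the lowest, by -1.84 from 1 shock at 2 h, and 7 shocks at 6 h stood 1.47 above it. The interferon-inducible Psme1 read 207, 323, 182, 289 and 215, with both 2 h ECS arrays highest. Psme3, the nuclear activator, read 862, 644, 1156, 928 and 1090, with both 6 h arrays highest. Psme3ip1, a nuclear partner of Psme3, read 134, 86.0, 165, 110 and 45.6. Its 7 shocks 6 h reading was the lowest, by -1.56 from sham and -1.85 from 1 shock at 6 h, and it has 1 probe set.

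**Figure D3:**
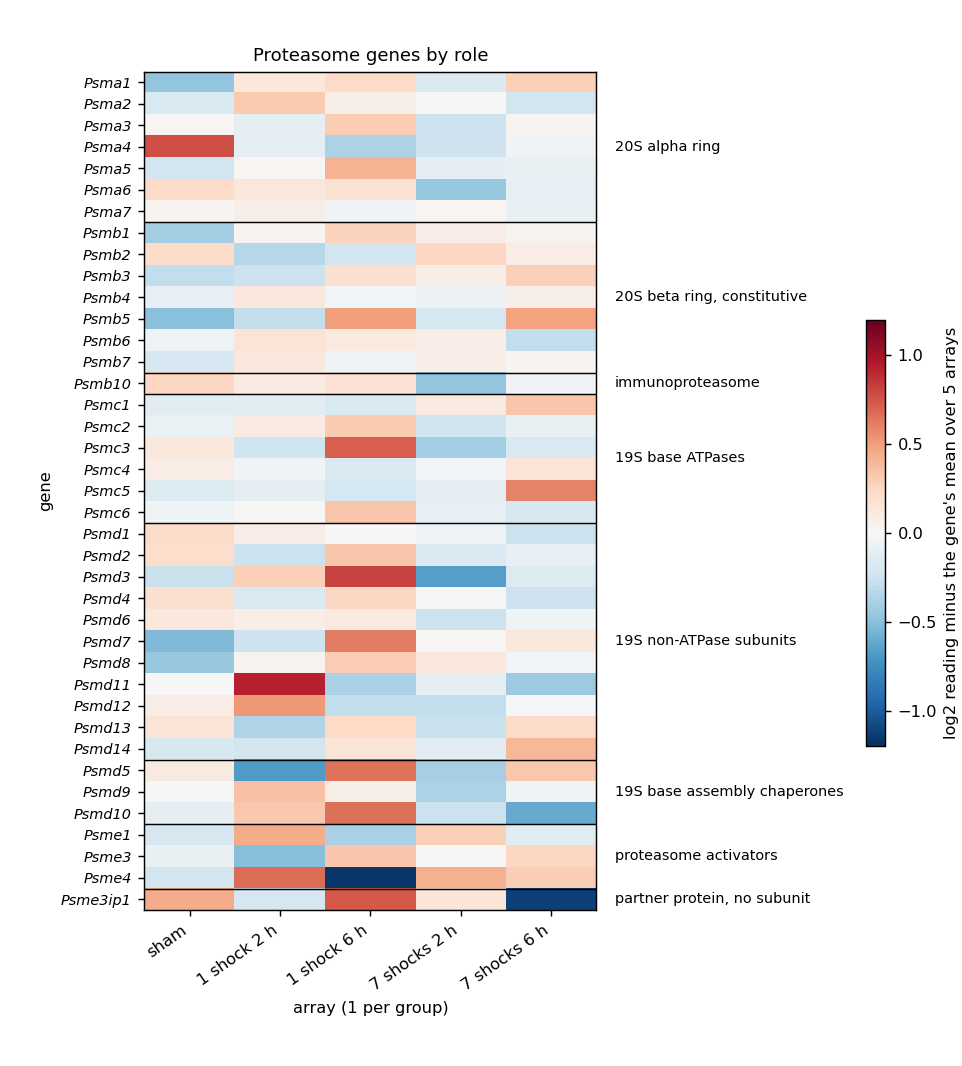
Log2 reading of the 38 kept proteasome genes and Psme3ip1 on the 5 arrays, each minus the gene's own mean over the arrays, in rows grouped by role; red is above and blue below that mean. Psma4 stands out on sham, Psmd11 on the 1 shock 2 h array, Psmd3, Psmd7 and Psmc3 as high and Psme4 as low on the 1 shock 6 h array.

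The E2 genes of the Rad6 and Cdc34 type, several of which build degradation chains, were mostly above sham. In the 4 comparisons with sham, 4, 5, 5 and 5 of its 5 genes were above it (1 shock 2 h, 7 shocks 2 h, 1 shock 6 h, 7 shocks 6 h), with medians of 0.38, 0.40, 0.39 and 0.51 beside 0.01, 0.01, 0.07 and 0.02 for all genes. The shared sham array enters each of these. Ube2a read 197 on sham and 245 to 272 on the ECS arrays, and its close relative Ube2b, also a partner of the ligase Rad18, read 461 on sham and 557 to 658. Ube2r2 read 319 on sham and 364 to 471. Sham was the lowest array for the brightest probe set of all 3, by under 2-fold. The second kept probe sets differed in this: that of Ube2b stood at -0.23 from sham at 6 h after 1 shock and -0.73 at 2 h after 7 shocks, and that of Ube2a at -0.29 at 6 h after 1 shock.

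Ube2g1 and Ube2g2 belong to the same group. Ube2g1 read 23.7 on sham, 41.8 and 38.7 after 1 shock at 2 h and 6 h, and 69.2 and 49.5 after 7 shocks, so both 7-shock arrays were highest (1.55 and 1.06 above sham). It is dim, and with a pseudocount of 6.1 the difference at 7 shocks and 6 h was 0.88. Ube2g2, an E2 of the degradation of proteins from the endoplasmic reticulum, read 163, 126, 176, 216 and 331 in array order. The 7-shock arrays were highest here too, with the 7 shocks 6 h array 1.02 above sham, which was 0.96 after quantile normalization. The other probe set of Ube2g2, below the filter, stood at -1.62 from sham on that array.

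Ube2j1, an E2 anchored in the endoplasmic reticulum membrane, read 149, 159, 105, 314 and 217. Both 7-shock arrays were above the other 3, the 7 shocks 2 h array 1.08 above sham and the 7 shocks 6 h array 1.05 above 1 shock at the same time. Its relative Ube2j2 read 69.3 to 116 with the same array, 1 shock at 6 h, lowest. Ube2h, the E2 of the CTLH ligase complex, read 259, 269, 229, 372 and 705. The 7 shocks 6 h array stood apart, 1.45 above sham and 1.63 above 1 shock at 6 h, and the 7 shocks 2 h array came next. By their brightest probe set, Ube2h, Ube2j1, Ube2g1 and Ube2g2 each had their highest 2 readings on the 7-shock arrays. They were singled out for this after the values had been looked at. The proteasome gene Psmc1 had its highest 2 readings there too (907 and 1057 against 740 to 772). The share of all genes with this order was not computed. With the mean of kept probe sets, Ube2h stood 0.29 above sham and 0.99 above 1 shock at 6 h after 7 shocks, and Ube2j1 0.52 above sham at 2 h and 0.49 above 1 shock at 6 h, all short of 2-fold. Of the 10 neuron markers, 5 had their highest reading on a 7-shock array, among them Syt1 (865 and 995 against 470 to 623 on the others). The other 5 did not, with Map2 and Gap43 highest on sham. Of all genes, 18% were highest on the 7 shocks 2 h array and 20.7% on the 7 shocks 6 h array. The summed signal of the 10 neuron markers was 14117 and 15067 after 7 shocks at 2 h and 6 h. It was 14711 and 13001 after 1 shock and 12912 on sham, with 0 markers at 0. Their part in these values was not tested.

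Ube2s, which lengthens chains begun by the anaphase-promoting complex, had the widest spread of the kept genes of both families (1.96). It read 59.9 on sham, 234 and 83.3 after 1 shock at 2 h and 6 h, and 123 and 114 after 7 shocks at 2 h and 6 h. Sham was the lowest array and 1 shock at 2 h the highest, 1.96 above sham, with a difference of -1.49 from 2 h to 6 h after 1 shock, and 7 shocks at 2 h stood 1.04 above sham. The 1 shock 2 h array was highest for 10 of 38 proteasome and 7 of 23 Ube2 genes by their brightest probe sets. It was the highest for 18.8% of all genes. Psmd11, Psmd12 and Ube2w were among these members, as were the steady Psma7 and Ube2e1. The next brightest kept probe set of Psmd11 and that of Ube2w were not highest on that array. That array also had the highest ratio of 3' to 5' signal of the Gapdh controls (8.77 against 5.37 to 6.67 on the others), a sign of RNA quality. The ratio of the Actb controls (0.889) lay within the range of the others (0.593 to 1.10). The part of RNA quality in these values was not tested. The other probe set of Ube2s, far below the filter, did not share the sign of either difference from sham. The other mitotic E2, Ube2c, had deposited signals of 2.2 to 26.9 and was below the filter. Cdc34, an E2 outside the symbol rule, was also highest on the 1 shock 2 h array, at 71.2 against 24.9 to 37.3 on the others.

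By their brightest probe sets, the Ube2d, Ube2e and Ube2w genes, the first of them E2s that work with many ligases, held 0 of 7 past 2-fold. Their medians in the comparisons with sham were 0.17, 0.05, -0.01 and -0.18 in the order given above. Ube2d3 read 1197 to 1613 and Ube2d2a 797 to 1090. The 7 kept probe sets of Ube2d3 did not move together. A dimmer one stood at -1.53 and -1.58 from sham at 6 h after 1 and 7 shocks. Another, nearly as bright as the brightest, stood 0.38 to 0.45 above sham on the 4 ECS arrays. Ube2w, which tags the amino terminus of proteins, read 130, 245, 129, 193 and 224, with the 1 shock 2 h array highest (0.92 above sham). Its second kept probe set, almost as bright, read 155, 150, 230, 127 and 201, with the 1 shock 6 h array highest. The E2 Ube2n, which builds chains used in signalling and repair, read 404 to 426 on 4 arrays and 278 after 7 shocks at 6 h. Of its inactive partners, Ube2v1 read 87.7 to 140 and Ube2v2 read 392, 579, 518, 289 and 529, with the 7 shocks 2 h array lowest. Ube2o, a large enzyme that acts as both E2 and E3, read 33.9, 22.1, 51.5, 29.3 and 40.7, so that 6 h was above 2 h by 1.22 after 1 shock. Ube2f, an E2 for the modifier Nedd8, read 93.1 to 152, and Ube2z read 187 on the 1 shock 6 h array and 95.3 to 114 on the others.

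**Figure D4:**
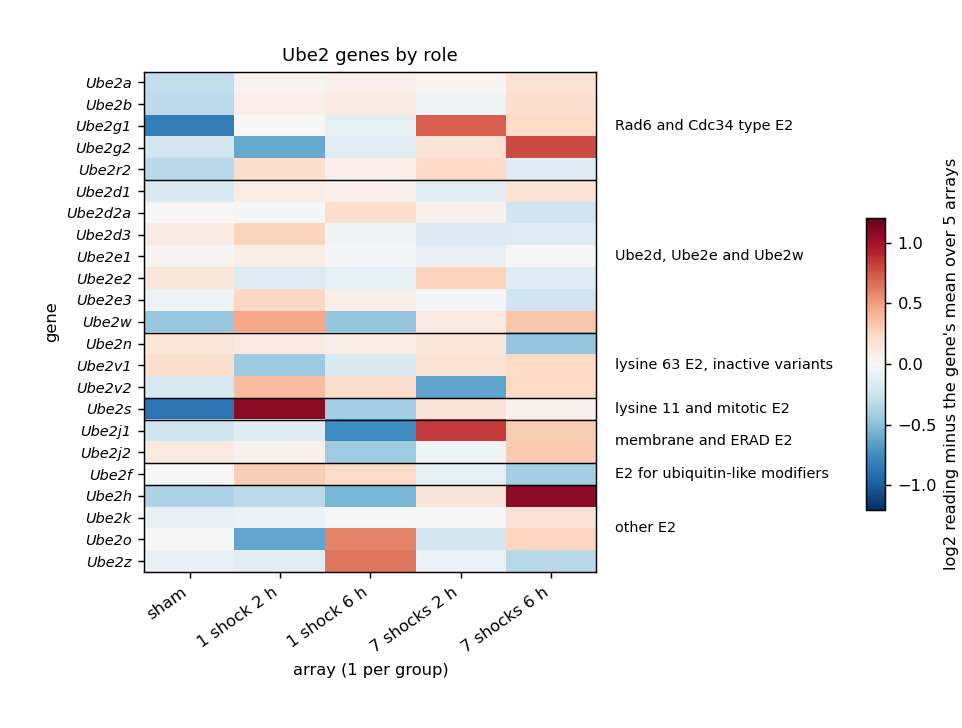
Log2 reading of the 23 kept Ube2 genes on the 5 arrays, each minus the gene's own mean, in rows grouped by role; red is above and blue below that mean. Ube2s is low on sham and high on the 1 shock 2 h array, and Ube2h, Ube2g2, Ube2j1 and Ube2g1 have their strongest red on a 7-shock array.

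Several members have more than 1 probe set, which is the only repeat measurement on these arrays, made on the same RNA. Of the 25 called differences, 16 come from genes with no other kept probe set. Of the 9 others, all further kept probe sets had the same sign in 3 and none had it in 4. For Psmd11 the brightest probe set stood at 0.92 above sham at 2 h after 1 shock, and its other 5 at 0.54, 1.08, -1.16, -0.02 and 0.21. For Ube2h the second probe set read 306 after 7 shocks at 2 h and 34.8 to 81.2 on the other arrays. Both Ube2h probe sets were thus highest on a 7-shock array, but at different times, and at 6 h after 7 shocks they stood at 1.45 and -0.87 from sham. For Ube2j1 the second probe set read 59.8 to 88.9 and was not higher on the 7-shock arrays. For Ube2v2 the called difference, just past 2-fold lower, between 7 shocks and 1 shock at 2 h was 0.51 on the other probe set. For Psme4 the second probe set had the same sign in both called comparisons, at -0.22 from 2 h to 6 h after 1 shock and 0.43 between 7 shocks and 1 shock at 6 h.

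**Figure D5:**
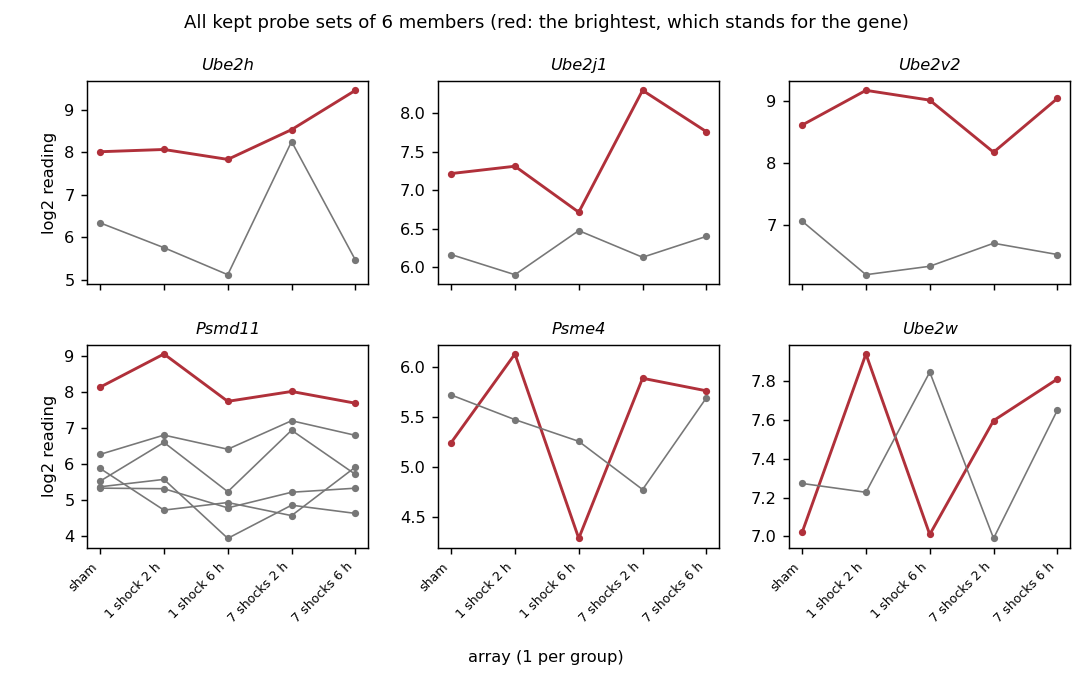
Log2 reading of every kept probe set of Ube2h, Ube2j1, Ube2v2, Psmd11, Psme4 and Ube2w on the 5 arrays, with the brightest probe set, which stands for the gene, in red and the others in grey; lines join the readings of 1 probe set. The 2 Ube2h lines peak on different 7-shock arrays, and the grey Ube2j1 line lacks the 7 shocks 2 h peak of the red one.

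Other genes of the ubiquitin pathway were listed by role, and 39 of the 42 with a probe set of their own were kept. In the order 1 shock 2 h, 7 shocks 2 h, 1 shock 6 h and 7 shocks 6 h, 2, 1, 3 and 0 of the 39 were at least 2-fold above sham and 0, 1, 1 and 3 below, with medians of 0.01, -0.08, 0.09 and 0.07. Beside the shares of all genes in these comparisons (6.29%, 7.1%, 7.25% and 7.4% higher, 6.83%, 6.86%, 7.73% and 7.25% lower), the counts are near the background. Nploc4, a cofactor of the segregase Vcp, read 241 on sham and 384 to 528 on the ECS arrays. The proteasome inhibitor Psmf1 read 85.6 on sham and 33.7 to 59.2 on the ECS arrays, lowest after 7 shocks at 6 h (-1.34). Ecpas, a proteasome adaptor, read 435 on sham and 167 to 259 on the others. The assembly chaperone Psmg1 read 115 after 1 shock at 2 h and 33.9 to 62.4 on the other ECS arrays, and Psmg3 was lowest after 7 shocks at 2 h, at 18.9. Pomp, which matures the core, read 798 to 956.

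Of the factors that control proteasome genes, Nfe2l1 read 201, 164, 155, 277 and 171 in array order, highest after 7 shocks at 2 h. Nfe2l2 read 21.2, 40.1, 54.8, 20.0 and 24.7, with both 1-shock arrays highest. Among ligases, the N-degron ligase Ubr1 read 914 after 1 shock at 6 h and 264 to 409 on the other arrays. Ubr2 was lowest after 7 shocks at 6 h (27.1 against 65.1 on sham), as was Huwe1 (89.7 against 218). Nedd4l read 64.7 after 1 shock at 2 h and 124 to 270 on the others. Ube3a, the ligase lost in Angelman syndrome, read 566 to 713 on the 5 arrays.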

How the data were processed

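RNA of 5 arrays was analysed, 1 per group. The authors deposited linear MAS5 intensity values, per the submitters' processing notes; the software version is not given in the sources used here. Of 22690 probe sets, 64 controls, 691 with several symbols and 1555 with none were left out; of the other 20380, 20351 matched a RefSeq gene ID. The steps computed here were a pseudocount of 1.2 (10th percentile of all values), log2, a filter on the top 50% of probe sets by mean, and subtraction of each array's median over the 10401 probe sets that passed. The brightest such probe set stood for a gene. There were 8 comparisons, called at a log2 difference of 1 and checked on simulated data. The 7 alternatives were no centring, quantile normalization, a pseudocount of 6.1, no filter, the top 25%, the mean of kept probe sets, and leaving out probe sets with suffix _s_at, _x_at or _a_at. Genes given array by array were members past 2-fold, the 3 steadiest of each family, the immunoproteasome genes and the activators; other pathway genes were given when past 2-fold. Further genes (such as Psma1, Psmb5, Psmc3, Psmc5, Psmd14, Ube2a, Ube2w and Nfe2l1) were chosen after their values were seen. The members, lists and rules were chosen with earlier results of these data known. Protein sequences were not used here. The number of arrays limits the precision. Python 3.11.15, numpy 2.4.6, pandas 2.3.3 and matplotlib 3.10.9 were used.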

Additional observations from a re-analysis of the deposited data

Results flagged for a closer look

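Psme3ip1 went in opposite directions with time after 1 and after 7 shocks: its log2 difference from 2 h to 6 h was 0.94 after 1 shock and -1.26 after 7 shocks. It was picked out because it was the member with opposite signs, one difference of at least 1 and the other of at least 0.58. The difference between them was not tested, since each rests on 1 array per group and on 1 probe set.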

How the results depend on the processing

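Of 112 counts of members past 2-fold (2 families, 8 comparisons, 7 alternatives), 72 stayed within 1.5 times the main count and 40 did not; the cause was not tested. Comparisons with sham are given as 1 shock 2 h, 7 shocks 2 h, 1 shock 6 h and 7 shocks 6 h, then 7 shocks minus 1 at 2 h and at 6 h, then 6 h minus 2 h after 1 and after 7 shocks. Brackets give the lowest and highest share of all genes past 2-fold over the 8 comparisons, higher first and then lower. Counts are of 38 proteasome and 23 Ube2 genes unless stated. The main counts (6.29% to 8.6%, 6.83% to 8.97%) were 0, 1, 3, 0, 1, 2, 3 and 0 for proteasome genes and 1, 3, 0, 3, 1, 2, 2 and 0 for Ube2 genes. With no centring (4.68% to 27.4%, 1.76% to 9.14%) they were 1, 4, 8, 7, 2, 2, 9 and 0 for proteasome genes and 1, 6, 2, 6, 7, 3, 3 and 0 for Ube2 genes. With quantile normalization (6.6% to 8.03%, 6.87% to 9.02%) proteasome counts equalled the main ones, and Ube2 counts were 1, 3, 0, 2, 2, 2, 2 and 0. With the larger pseudocount (4.97% to 7.37%, 5.22% to 7.77%) proteasome counts were 0, 0, 3, 0, 1, 2, 3 and 0, and for Ube2 1, 2, 0, 2, 0, 2, 2 and 0. With no filter on low values (11.9% to 14.7%, 11.2% to 15.6%) they were 1, 2, 4, 3, 2, 5, 4 and 1 of 41, and for Ube2 3, 4, 3, 8, 2, 4, 4 and 4 of 27. With the top 25% of probe sets (2.71% to 4.25%, 2.71% to 4.96%) they were 0, 1, 2, 0, 1, 0, 2 and 0 of 34, and for Ube2 1, 1, 0, 1, 1, 2, 1 and 0 of 20. With the mean of kept probe sets (5.63% to 7.89%, 6.23% to 8.04%) they were 0, 1, 4, 0, 0, 1, 2 and 0, and for Ube2 1, 3, 0, 2, 1, 0, 2 and 0. Without the suffixed probe sets (6.26% to 8.7%, 7.28% to 8.97%) they were 1, 2, 4, 0, 0, 2, 4 and 1 of 29, and for Ube2 0, 2, 0, 3, 0, 2, 1 and 0 of 18. Of 164 recomputed single called differences, 137 stayed past 2-fold, 25 kept their sign below it and 2 reversed, both without the suffixed probe sets: Psmd11 (0.32) and Ube2v2 (0.49) between 7 shocks and 1 shock at 2 h. No replicate could be left out, and no paired analysis was possible because each group has 1 array. Signal over background could not be judged beyond the filter, since detection calls were not used here.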
